A study of Mus musculus with 51 samples.

Results

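The 10 glutathione S-transferase genes described here are Gsta1, Gsta2, Gsta3 and Gsta4 of the alpha class, Gstm1, Gstm2, Gstm3 and Gstm6 of the mu class, Gstp1 of the pi class and Gstt1 of the theta class. They were chosen by name, with earlier results of these data known, as 10 of the 33773 gene symbols in the deposited expression matrix. They were followed through all 6 groups of RNA libraries. All 10 passed the filter on low values in hepatocytes and in liver. The series asks what mouse hepatocytes express once the transcription factors FoxA1, FoxA2 and FoxA3 are lost.

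Triple null hepatocytes (n = 4) came from FoxA1L/L/FoxA2L/L/FoxA3-/- mice that received, at 8 weeks of age, an adeno-associated virus (AAV8) with Cre recombinase under the Tbg promoter, which is active in hepatocytes. FoxA3 null hepatocytes (n = 4) came from mice of that genotype that received AAV with GFP at the same age, so both groups lack FoxA3. The lox group (n = 3) is labelled FoxA1/A2_lox and the Cre alfp group (n = 4) FoxA1/A2_Cre_alfp, with no age or promoter spelled out. Liver tissue gave 2 HNF4a_control libraries and 4 libraries labelled HNF4a_null, whose Hnf4a was deleted in adult liver per the design text. Nothing in the labels says which libraries come from separate animals, so p-values measure the spread between these samples, which may be technical.

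Glutathione S-transferases are cytosolic enzymes that join the tripeptide glutathione to reactive, electrophilic compounds. The conjugates are less reactive, leave the cell through export pumps and are trimmed to mercapturic acids. The active enzyme is a dimer of subunits of 1 class, and the liver is rich in them because it meets drugs, food toxins and products of lipid peroxidation. Several of the genes are known to be induced through the regulators NRF2, CAR, PXR and AhR.

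The stretches of 150 bases before the annotated start of 6 of the genes and of Gstp2, the neighbour of Gstp1, are shown for the run that Gsta1 and Gsta2 share and for motif matches in the others (RefSeq, build GRCm38.p6). In Gsta1 and Gsta2 the capitals mark the longest run that both share, 29 bases. In the others the capitals mark a match to a motif that was searched.
Gsta1 (chr9:78230519-78230668, plus strand): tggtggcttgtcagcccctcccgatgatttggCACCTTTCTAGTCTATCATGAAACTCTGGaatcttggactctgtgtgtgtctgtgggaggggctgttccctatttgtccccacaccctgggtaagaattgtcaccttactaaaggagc
Gsta2 (chr9:78347146-78347295, minus strand): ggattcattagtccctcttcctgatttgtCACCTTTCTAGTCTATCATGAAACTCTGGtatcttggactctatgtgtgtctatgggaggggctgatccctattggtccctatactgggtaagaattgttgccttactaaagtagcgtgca
Gstm1 (chr3:108017819-108017968, minus strand): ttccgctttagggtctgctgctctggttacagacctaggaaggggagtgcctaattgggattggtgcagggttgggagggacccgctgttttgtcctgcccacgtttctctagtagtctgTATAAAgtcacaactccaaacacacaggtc
Gstm2 (chr3:107986421-107986570, minus strand): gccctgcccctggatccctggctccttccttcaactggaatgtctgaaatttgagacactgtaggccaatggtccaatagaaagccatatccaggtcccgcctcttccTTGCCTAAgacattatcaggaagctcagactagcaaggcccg
Gstp1 (chr19:4037913-4038062, minus strand): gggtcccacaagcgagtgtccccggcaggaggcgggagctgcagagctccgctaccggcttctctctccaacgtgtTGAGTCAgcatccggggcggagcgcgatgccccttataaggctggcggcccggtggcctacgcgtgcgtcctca
Gstp2 (chr19:4042222-4042371, minus strand): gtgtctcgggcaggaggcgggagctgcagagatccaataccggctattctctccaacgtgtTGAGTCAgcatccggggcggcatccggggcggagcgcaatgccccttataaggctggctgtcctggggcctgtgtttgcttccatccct
Gstt1 (chr10:75797732-75797881, minus strand): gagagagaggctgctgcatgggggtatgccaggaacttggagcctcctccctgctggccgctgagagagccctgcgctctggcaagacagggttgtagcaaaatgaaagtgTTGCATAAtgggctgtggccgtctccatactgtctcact
Both Gstp promoters carry TGAGTCA in capitals and share a run of 34 bases. Counting back from the base before the start as -1, these matches begin at -74 in Gstp1 and at -89 in Gstp2.

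RefSeq windows were at hand for 9 of the 10 genes, 12 windows in all, and 250 bases before each start were searched on both strands. The letters of 3 forkhead motifs were found in 0 of the 12 windows. TGTTTAC occurred in 3.17% of all 32851 windows. TATTTAC occurred in 2.73% of them. TGTTTGC occurred in 4.3% of them, and outside the 10 genes in Gstp2 at -17 and in 1 Mgst1 window at -193 and -98. Some of the letters searched overlap, as TGANTCA and TGACNNNGC can. The HNF4 letters CAAAGTCCA occurred in 0.384% of all windows and in 0 of the 12. The variant CAAAGGTCA occurred in 0.426% and in 0 of the 12. The antioxidant response element core TGACNNNGC occurred in 10.2% of all windows and in Gsta3 at -121. The AP-1 letters TGANTCA occurred in 6.75% of all windows and among the 10 genes in Gstp1. The C/EBP letters TTGCNNAA occurred in 9.56% of all windows, and in Gsta3 at -137, Gstm2 at -42 and Gstt1 at -39. TATAAA occurred in 12.4% of all windows, and in Gstm1 at -30 and Gsta2 at -246. No match says only that these letters are not in the windows searched.

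Levels are the authors' RPKM, which divides reads by gene length and library size, and a difference is one of log2(RPKM + 1), a scale that understates the change of low genes. A gene was called when its limma adjusted p-value (Benjamini-Hochberg, over all genes tested) was under 0.05 and its absolute difference was at least 1. Absolute depth is unknown, and relative depth, read from the steps between low values, ranged from 2.01 to 4.06 in hepatocyte libraries and from 1 to 1.10 in liver libraries. Foxa3 was listed at 0 to 0.0114 RPKM in the 8 triple null and FoxA3 null libraries. Foxa2 fell by 3.39 on the log2 scale from FoxA3 null to triple null and by 2.58 from lox to Cre alfp, and Foxa1 fell by 1.13 and by 1.76. Foxa1 remained at 3.04 to 3.63 RPKM in the triple null, against 6.14 to 10.1 in FoxA3 null. In liver Hnf4a went against the label: its RPKM was 118 to 126 in controls and 487 to 545 where the label says HNF4a null (4 libraries, named below by their label). The 8 triple null and FoxA3 null libraries and the 7 lox and Cre alfp libraries form separate sets. Over the matrix, 11 genes had 0 RPKM in each of the 8 and over 1 in each of the 7, 2 genes showed the reverse, and 1272 tested genes did not overlap between the sets, 0 of them among the 10. All 11 were also at 0 in every liver library, where Foxa3 was 23.3 to 31.4 RPKM.

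In undeleted hepatocytes 3 of the 10 genes led. In lox, Gstp1 was 1259.9 ± 55.4 RPKM, Gstm1 1158 ± 167 and Gsta3 827 ± 222 (SD, n = 3), and Gstt1 followed at 226 ± 52.6. Gstp1 and Gstm1 were the closest of these, and their ranges overlapped, as did those of Gstm1 and Gsta3. Gstm6, Gsta4, Gstm3, Gstm2 and Gsta2 lay between 26.0 and 102 RPKM, and Gsta1 was last at 3.31 ± 1.82. FoxA3 null hepatocytes had Gstp1, Gstm1 and Gsta3 in the same order, at 2053 ± 171, 1369 ± 307 and 1174 ± 140 RPKM (n = 4), with Gstm1 and Gsta3 overlapping. Control liver kept these genes on top in another order, with Gsta3 at 1729.5 ± 17.9 RPKM, Gstm1 at 605 ± 17.2 and Gstp1 at 605 ± 50.3 (n = 2).

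**Figure D1:**
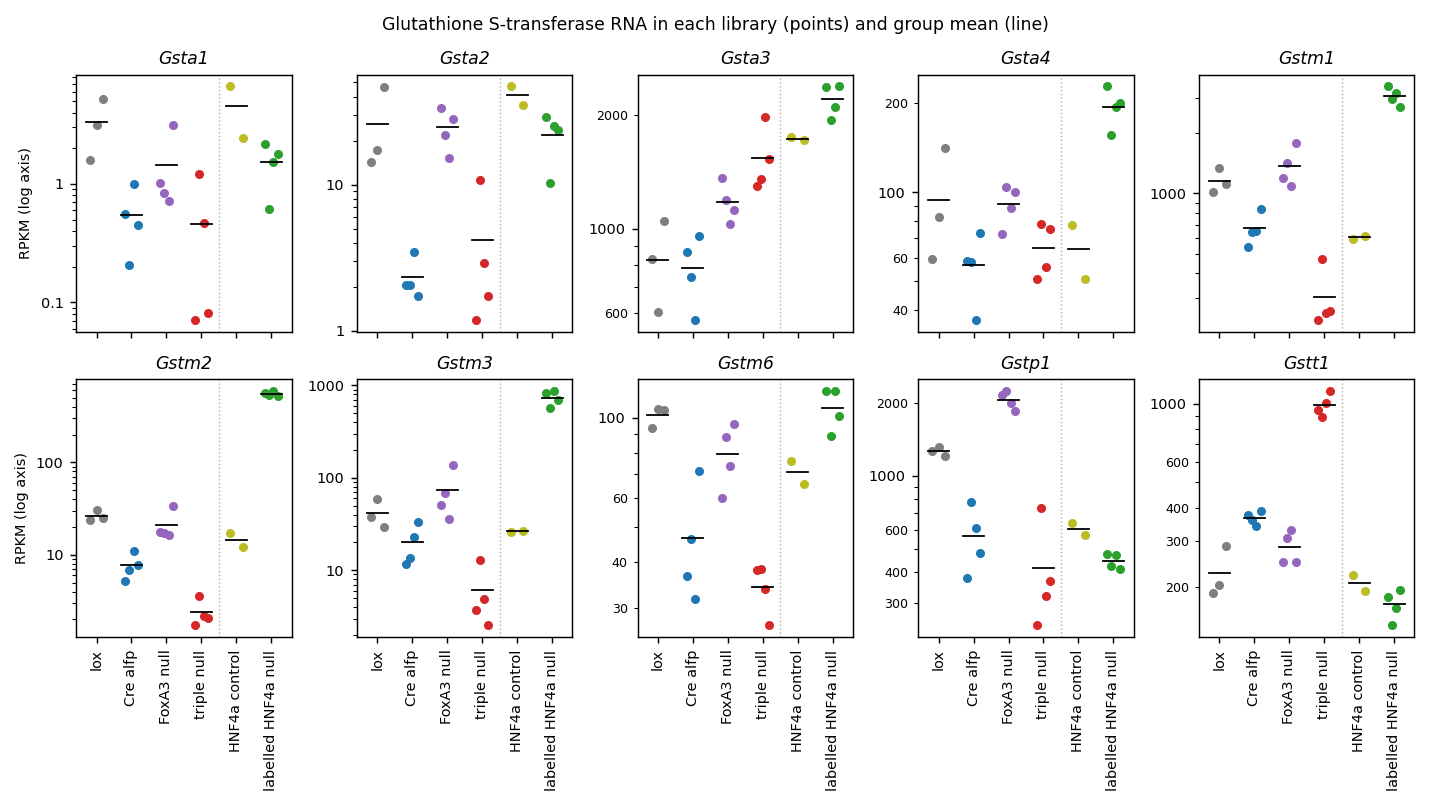
RPKM of each of the 10 genes (log axis) in every library (points) with group means (lines), hepatocytes left and liver right of the dotted line. Gstt1 stands at 890 to 1115 RPKM in the triple null against 249.5 to 330 in FoxA3 null, while Gstm1, Gstm2, Gstm3, Gstm6, Gsta2 and Gstp1 lie below FoxA3 null in all 4 triple null libraries.

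Triple null against FoxA3 null asks what the deletion of Foxa1 and Foxa2 does where FoxA3 is already absent. Gstt1 rose, 6 genes fell, and Gsta1, Gsta3 and Gsta4 were not called. Of all 11500 genes tested, 4.17% were called higher and 3.95% lower, and the groups of the 7 called genes did not overlap, as those of 27.9% of all genes tested did not. The median difference of the 10 genes was -1.69 on the log2 scale, against 0.05 for all genes tested. Each of the 7 calls held in every alternative that was run.

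All 4 mu class genes fell. Gstm3 was 3.69, 13.0, 4.90 and 2.55 RPKM in triple null replicates 1 to 4, and 51.3, 68.2, 36.2 and 138 in FoxA3 null replicates 1 to 4. Each triple null library was far below the lowest FoxA3 null library, and the mean was 8.23% ± 6.49 of the FoxA3 null mean (n = 4, limma log2 difference -3.43, SE 0.46, adjusted p 8.25e-05). Gstm2 was 1.73, 3.56, 2.17 and 2.06 RPKM against 17.8, 17.3, 16.5 and 33.3, with FoxA3 null replicate 4 apart from its group. Its mean was 11.2% ± 3.81 of FoxA3 null (log2 difference -2.69, SE 0.24, limma adjusted p 1.46e-06).

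Gstm1, the most abundant mu subunit of mouse liver, had 233, 472, 254 and 261 RPKM in triple null libraries, against 1189, 1422, 1086 and 1779 in FoxA3 null. Triple null replicate 2 stood apart from its group and was still below every FoxA3 null library. The mean fell to 22.3% ± 8.18 of FoxA3 null (log2 difference -2.20, SE 0.22, limma adjusted p 5.03e-06). Gstm6 was 38.0, 38.3, 33.8 and 26.8 RPKM against 60.1, 88.4, 73.4 and 96.4, the smallest fall of the class, to 43.0% ± 6.70 (log2 difference -1.18, SE 0.22, limma adjusted p 0.000998). Gstm1 and Gstm2 may share reads with the near-identical Gstm2-ps1 and Gm6665, so levels within the mu class are uncertain. Gstm2-ps1 fell by 2.50 on the log2 scale.

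The pi class gene Gstp1, more abundant in male than in female mouse liver, was the most abundant of the 10 in FoxA3 null and lost that place. Triple null libraries had 243, 739, 320 and 369 RPKM, and FoxA3 null libraries 2154, 2229, 1983 and 1849. Replicate 2 was again the highest triple null library, and no library came near the FoxA3 null range. The mean fell to 20.3% ± 10.7 of FoxA3 null (log2 difference -2.42, SE 0.28, limma adjusted p 1.88e-05). Gstp2, a near-identical neighbour with far lower RPKM, fell by 1.33 on the log2 scale.

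Within the alpha class the genes parted. Gsta2, a subunit known to be induced by antioxidants, stood at 1.18, 10.8, 2.90 and 1.74 RPKM in triple null replicates and at 33.2, 21.95, 15.3 and 28.2 in FoxA3 null, a fall to 16.9% ± 18.3 (log2 difference -2.60, SE 0.47, limma adjusted p 0.000848). Gsta1 was 0.0707, 1.21, 0.471 and 0.0809 RPKM against 1.01, 0.844, 0.714 and 3.15, with overlapping groups and a difference of -0.70 on the log2 scale (SE 0.33, limma adjusted p 0.12). Gsta3, which conjugates the epoxide of aflatoxin in mice, was 1538 ± 309 against 1174 ± 140 RPKM (n = 4 each, log2 difference 0.38, 95% interval -0.04 to 0.80, limma adjusted p 0.165). Gsta4, which acts on the lipid peroxidation product 4-hydroxynonenal, was 64.9 ± 13.5 against 91.2 ± 14.4 RPKM (log2 difference -0.49, interval -1.04 to 0.05, limma adjusted p 0.161). Reads of Gsta1 and Gsta2 may be split between them, and summing them gave -2.58 (limma adjusted p 0.00115).

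Gstt1, a theta class enzyme that acts on small halogenated compounds, went the other way. Its RPKM was 949, 890, 1006 and 1115 in triple null replicates and 249.5, 306, 330 and 249.7 in FoxA3 null ones. The lowest triple null library was above the highest FoxA3 null library by more than the spread within either group. The mean rose to 349% ± 33.8 of FoxA3 null (log2 difference 1.81, SE 0.14, limma adjusted p 3.16e-07).

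Triple null replicate 2 had the highest value of its group in 8 of the 10 genes and the lowest in Gstt1. Without it, all 7 calls were again made, and the mean of Gsta2 was 7.88% ± 3.57 of FoxA3 null and that of Gstm3 5.05% ± 1.60 (n = 3). Markers of other cell types moved with the same groups. Summed RPKM of 12 sinusoidal endothelium markers was 8.80 to 18.5 in the triple null against 33.4 to 51.2 in FoxA3 null, and none of the 12 was at 0 throughout a group. Summed RPKM of 8 neutrophil and monocyte markers was 9.66 to 111 against 0.786 to 2.05, nearly all of it S100a8 and S100a9, with Ly6g at 0 in both groups. The sum of 11 hepatocyte markers was 34154 to 41141 against 64562 to 68474. The sum of 6 erythroid markers was 7.38 to 28.4 against 34.0 to 48.0, with Alas2 called lower (1.04 against 38.9 RPKM by the means) and the 3 globin genes tested called higher (Hba-a1 5.72 against 0.790). The sum of 10 stellate cell markers was 6.82 to 24.2 against 25.6 to 35.4. Kupffer cell markers overlapped, at 15.7 to 50.5 against 24.0 to 31.2, as did cholangiocyte markers, at 5.45 to 8.81 against 7.47 to 11.1, and lymphocyte markers summed to at most 1.88. Their part in the results was not tested, and in bulk samples fewer cells of a type and less RNA per cell cannot be told apart.

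The makeup of the sum of the 10 genes differed between these groups. The sum was 3363 ± 383 RPKM in the triple null against 5171 ± 360 (n = 4 each). Gstt1 made up 29.7% ± 4.32 of the triple null sum, against 5.53% ± 1.12 in FoxA3 null, and Gsta3 45.7% ± 6.76 and 22.7% ± 2.40. Gstp1 made up 12.2% ± 5.66 and 39.8% ± 3.76, and Gstm1 9.02% ± 2.80 and 26.3% ± 4.65. The order thus passed from Gstp1, Gstm1, Gsta3 and Gstt1 to Gsta3, Gstt1, Gstp1 and Gstm1, where Gsta3 and Gstt1 did not overlap and Gstp1 and Gstm1 did.

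**Figure D2:**
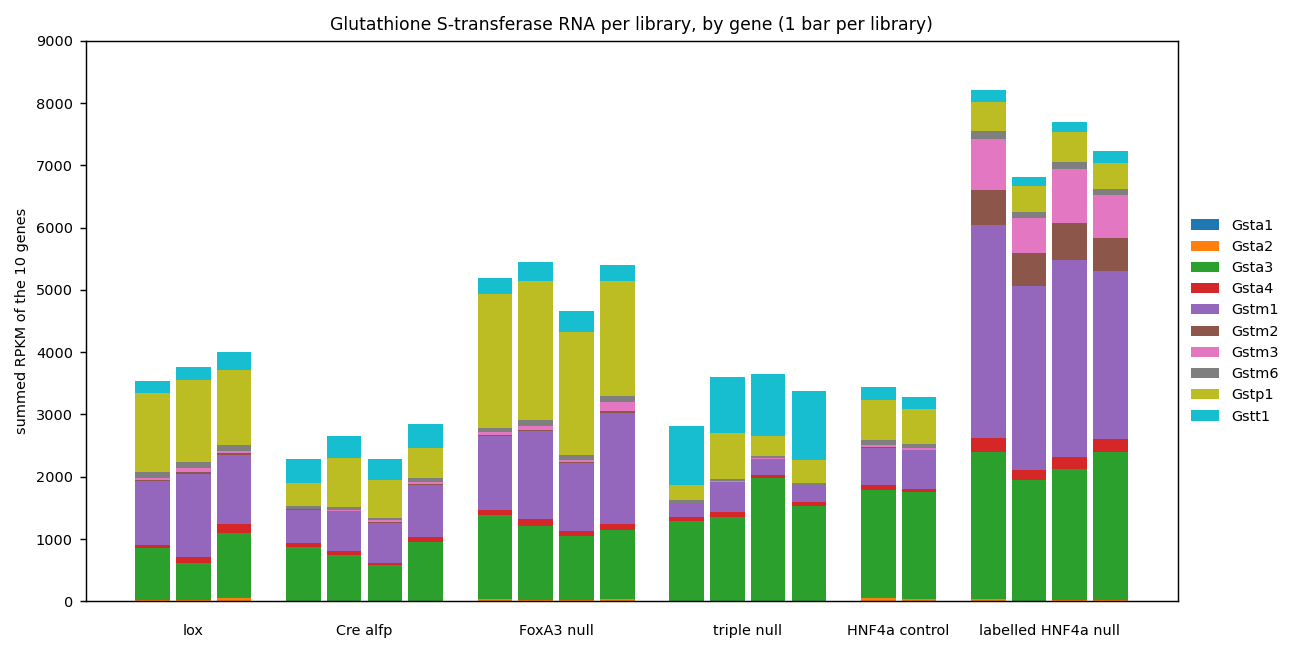
Summed RPKM of the 10 genes in each library (1 bar per library, axis from 0), split by gene. Gstt1 takes 29.7% of the bar on average in the triple null, against 5.53% in FoxA3 null, and the bars of the libraries labelled HNF4a null are the tallest, with Gstm1, Gstm2 and Gstm3 much wider than in control liver.

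Cre alfp against lox asks what the deletion does where FoxA3 is present. Gsta1, Gsta2, Gstm2, Gstm6 and Gstp1 were called lower and none of the 10 was called higher. Of all 11500 genes tested, 1.1% were called lower and 1.29% higher. The median difference of the 10 genes was -1.12 on the log2 scale, against 0.02 for all genes. Groups did not overlap for 7 of the 10 genes, the 5 called ones and Gstm1 and Gstt1, and for 19.9% of all genes.

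Gsta2 had the largest difference, at 2.07, 2.05, 3.47 and 1.73 RPKM in Cre alfp replicates 1 to 4 and 14.4, 17.3 and 46.4 in lox replicates 1 to 3. The Cre alfp libraries were close to each other and below all lox libraries, and their mean was 8.96% ± 2.98 of lox (log2 difference -2.86, SE 0.50, limma adjusted p 0.0043), or 14.7% without lox replicate 3. Gstm2 was 5.24, 6.78, 11.1 and 7.67 RPKM in Cre alfp and 23.7, 30.5 and 25.0 in lox, a fall to 29.2% ± 9.35 (log2 difference -1.69, SE 0.26, limma adjusted p 0.00144). Summed with Gstm2-ps1, Gstm2 was not called (-0.71, limma adjusted p 0.187). Gstm2-ps1 was 271 to 441 RPKM in lox and 174 to 327 in Cre alfp, so this sum mostly follows Gstm2-ps1. Gstm6 was 36.6, 46.4, 31.7 and 71.2 RPKM against 93.8, 106 and 105 (log2 difference -1.18, SE 0.23, limma adjusted p 0.00945), and not called with only these 2 groups in the fit (limma adjusted p 0.0549).

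Gstp1 was 380.0, 780.4, 610 and 479 RPKM in Cre alfp and 1262, 1314 and 1204 in lox, without overlap (log2 difference -1.21, SE 0.30, limma adjusted p 0.0311). Gsta1 was 0.554, 0.206, 0.991 and 0.454 RPKM against 1.58, 3.13 and 5.22 (log2 difference -1.41, SE 0.35, limma adjusted p 0.0334). These are the least secure calls of the comparison. Gstp1 lost its call without any 1 of the lox replicates or of Cre alfp replicates 1, 3 and 4 (limma adjusted p 0.0544 to 0.106). Gsta1 lost it without lox replicate 2 or 3 or without Cre alfp replicate 1, 2 or 4 (limma adjusted p 0.0599 to 0.122).

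Gstt1 was 375, 361, 341 and 389 RPKM in Cre alfp and 189, 204 and 287 in lox. All Cre alfp libraries were higher, and the difference, 0.71 on the log2 scale (SE 0.15, limma adjusted p 0.0129), was under the minimum of 1. Gstm1 was 540, 644, 652 and 841 RPKM against 1016, 1341 and 1116, without overlap and not called (-0.80, SE 0.24, limma adjusted p 0.0704). Gstm3 was 11.6, 13.5, 23.0 and 32.8 RPKM against 37.4, 58.9 and 29.4, where Cre alfp replicate 4 lay above lox replicate 3 (log2 difference -1.07, interval -2.15 to 0.01, limma adjusted p 0.276). Gsta3 was 786 ± 167 RPKM in Cre alfp (n = 4) and 827 ± 222 in lox (n = 3), with an interval of the difference from -0.52 to 0.39. Gsta4 was 56.7 ± 14.9 and 94.4 ± 42.1 RPKM, with an interval from -1.27 to -0.08 (limma adjusted p 0.197). By mean RPKM Gsta3 led in Cre alfp, with Gstm1 at 669 ± 125 and Gstp1 at 562 ± 173, and neighbours in this order overlapped. Summed marker RPKM overlapped between Cre alfp and lox for endothelium, macrophages and stellate cells. Hepatocyte markers summed to 67778 to 72413 against 72662 to 78038, neutrophil and monocyte markers to 1.52 to 4.00 against 0.949 to 1.496, and the erythroid sum was 15.8 to 29.2 against 81.6 to 90.8, of which Alas2 made up 14.9 and 84.0 on average. Their part in the result was not tested.

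**Figure D3:**
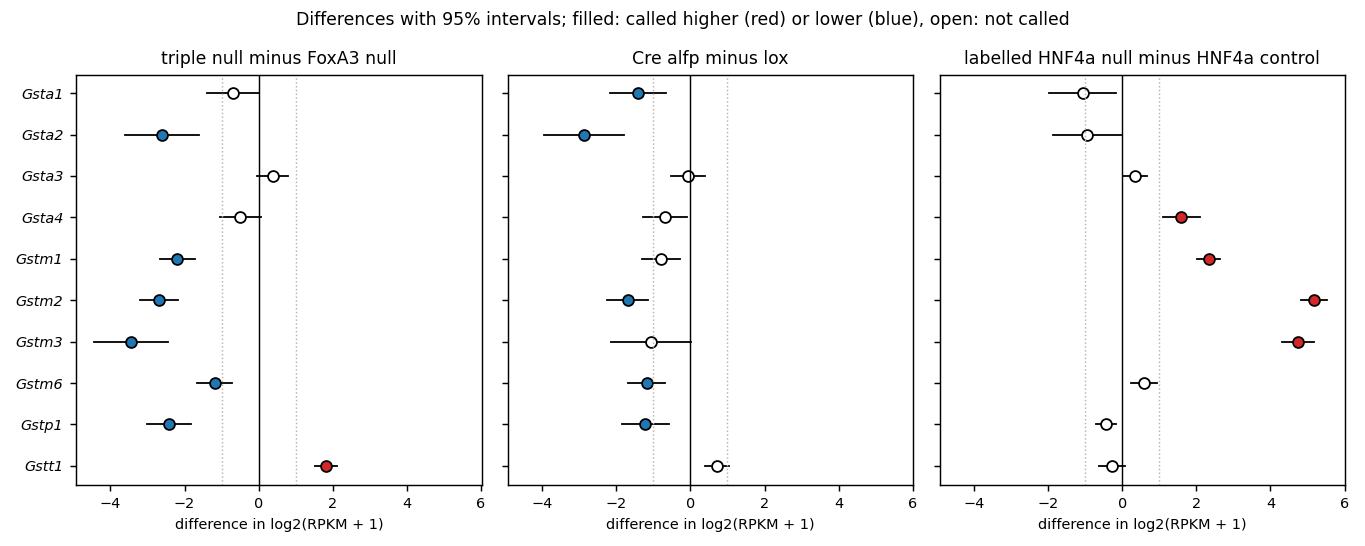
Differences in log2(RPKM + 1) with 95% intervals for each gene in 3 comparisons, filled where called, dotted lines at -1 and 1. Gstt1 is the 1 gene called higher in the triple null, at 1.81, and Gstm1, Gstm2 and Gstm3 are called lower there and higher in the libraries labelled HNF4a null.

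The interaction tests whether the deletion acted differently with and without FoxA3, as the triple null minus FoxA3 null difference less the Cre alfp minus lox difference. It was called for 3 of the 10 genes, where 3.28% of all genes were called higher and 3.54% lower. Gstm1 stood at -1.40 (SE 0.33, limma adjusted p 0.0115), Gstm3 at -2.36 (SE 0.68, limma adjusted p 0.034) and Gstt1 at 1.09 (SE 0.20, limma adjusted p 0.0031). The differences of Gstm1, Gstm3 and Gstt1 were thus larger in the set without FoxA3. Gstp1 at -1.21 (limma adjusted p 0.0637) and Gstm2 at -0.999 (limma adjusted p 0.073) were not called. Gstm2 was called when summed with Gstm2-ps1 (-1.81, limma adjusted p 0.00705), a sum that mostly follows Gstm2-ps1. Gsta1 at 0.70, Gsta2 at 0.26, Gsta3 at 0.44, Gsta4 at 0.18 and Gstm6 at -0.01 were not called, with an interval from -1.21 to 1.73 for Gsta2 and from -0.69 to 0.68 for Gstm6. Without lox replicate 3 only Gstm1 was called, with Gstt1 at 0.91 and Gstm3 at an adjusted p of 0.0727, and without triple null replicate 2 Gstp1 (-1.53) and Gstm2 (-1.15) were called too. The Gstm3 call was lost in 10 of 23 alternatives. Each FoxA3 state is 1 of the library sets, with Cre given by virus in 1 and labelled Cre alfp in the other. The state, the set and the way of deletion thus cannot be told apart.

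The other comparisons of hepatocytes cross the library sets, so a difference between sets cannot be told apart from the FoxA3 genotype. Triple null against lox called 8 of the 10 genes, with Gstt1 higher and 7 lower, where 7.72% of all genes were called higher and 5.81% lower. Relative to the median of all genes, 0.13, Gstt1 was higher by 2.01, Gstm2 differed by -3.17, Gstm3 by -2.89, Gsta2 by -2.67, Gstm1 by -2.10, Gstp1 by -1.85, Gstm6 by -1.69 and Gsta1 by -1.67. Gsta3 differed by 0.78 and did not overlap, Gsta4 differed by -0.60 and overlapped, and neither was called. Without the median taken off, Gsta3 stood at 0.91 (limma adjusted p 0.00364), under the minimum of 1, and was called without lox replicate 3 (1.10).

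Triple null against Cre alfp called Gstt1 higher and Gstm1, Gstm2 and Gstm3 lower, where 5.26% of all genes were called higher and 5.03% lower. Relative to the median of all genes, 0.13, these were 1.304, -1.299, -1.47 and -1.81, and Gstm3 overlapped. Gsta2 was 4.17 ± 4.50 RPKM against 2.33 ± 0.774 (n = 4 each), with a log2 difference of 0.32 and an interval from -0.68 to 1.32. Without triple null replicate 2 its mean was 1.94 RPKM (n = 3), 83.4% of Cre alfp, and the log2 difference turned to -0.19. Gsta3 was higher in every triple null library (0.85 relative to the median), and not called. Its difference, 0.97 on the log2 scale (limma adjusted p 0.00144), was under the minimum of 1. Gsta3 was called in 6 of 17 alternatives, among them leaving out triple null replicate 1 or 2, or Cre alfp replicate 1 or 4. Gsta1 (-0.26), Gsta4 (0.08), Gstm6 (-0.50) and Gstp1 (-0.63) overlapped and were not called. These comparisons share the triple null libraries with the first one. Marker sums moved with both. Hepatocyte markers summed to 34154 to 41141 RPKM in the triple null, 67778 to 72413 in Cre alfp and 72662 to 78038 in lox. In that order, endothelium markers summed to 8.80 to 18.5, 24.0 to 84.2 and 41.9 to 70.0. Neutrophil and monocyte markers summed to 9.66 to 111, 1.52 to 4.00 and 0.949 to 1.496. Erythroid markers summed to 7.38 to 28.4, 15.8 to 29.2 and 81.6 to 90.8. The part of these markers was not tested.

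FoxA3 null against lox called 0 of the 10 genes by limma, and 4 had an unadjusted p under 0.05, where 3.63% of all genes were called higher and 3.56% lower. Those 4 were Gsta1 (-0.94 relative to the median of all genes, 0.10), Gsta3 (0.43), Gstp1 (0.60) and Gstt1 (0.23). Gstp1 was higher in every FoxA3 null library, while Gsta1, Gsta3 and Gstt1 overlapped. The other 6 genes overlapped, with Gstm3 at 0.57, Gstm1 at 0.12, Gsta2 at -0.04, Gsta4 at -0.08, Gstm2 at -0.45 and Gstm6 at -0.47 relative to the median. Gsta1 was called without lox replicate 1 (-1.16, limma adjusted p 0.0423) or without FoxA3 null replicate 4 (-1.13, limma adjusted p 0.0205).

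The liver libraries ask the same of HNF4a, another transcription factor of hepatocytes. In the libraries labelled HNF4a null, Gsta4, Gstm1, Gstm2 and Gstm3 were higher and none of the 10 was called lower, where 8.58% of all 12434 genes tested were called higher and 5.95% lower. The median of all genes was 0.34 and that of the 10 genes 0.46. Of the 10 genes, 9 did not overlap between the groups, Gstt1 being the exception, and neither did 67% of all genes, so the count says little of the 10.

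Gstm2 was at 565, 536, 591 and 523 RPKM where the label says HNF4a null, and at 17.2 and 12.02 in control liver. The groups were more than an order of magnitude apart, 37.9-fold by their means (log2 difference 5.17, SE 0.15, limma adjusted p 2e-06, 4.83 relative to the median). Gstm3 was 817, 566, 866 and 691 RPKM against 26.2 and 26.3, 28.0-fold by the means (log2 difference 4.74, SE 0.18, limma adjusted p 6.5e-06, 4.399 relative to the median). Gstm1 was 3422, 2953, 3162 and 2701 RPKM against 593 and 617, 5.06-fold (log2 difference 2.33, SE 0.13, limma adjusted p 3.68e-05). With Gstm2-ps1 summed in, Gstm2 stood at 2.98. Gstm2-ps1 was 727 to 868 RPKM where the label says HNF4a null, and 151 and 164 in control liver, above Gstm2 in both.

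Gsta4 was 228, 155, 193 and 199 RPKM against 77.7 and 50.8, 3.02-fold by the means (log2 difference 1.60, SE 0.21, limma adjusted p 0.00121, 1.26 relative to the median). Gstm6, the mu gene that was not called, was 107 ± 14.3 against 70.7 ± 7.31 RPKM (log2 difference 0.58, SE 0.15, limma adjusted p 0.0153, 0.24 relative to the median). Over the alternatives its difference ran from 0.18 to 0.68 and its limma adjusted p from 0.00775 to 0.384. Gsta1 was 1.52 ± 0.658 against 4.54 ± 3.00 RPKM and Gsta2 21.9 ± 8.14 against 41.1 ± 8.47 (n = 4 and 2). Both were without overlap and not called, at -1.06 and -0.95 (limma adjusted p 0.0521 and 0.0769). With median scaling both were called, at -1.35 and -1.34. Gsta1 was also called with quantile normalization (-1.34, limma adjusted p 0.03) and without the control library ATTCCTA (-1.64, limma adjusted p 0.0224), and stood at -0.48 without the other control. Gstp1 was 447 ± 31.8 against 605 ± 50.3 RPKM and Gstt1 172 ± 22.4 against 207 ± 20.1, with log2 differences of -0.44 and -0.28, or -0.77 and -0.61 relative to the median. Neither was called, and Gstp1 did not overlap (limma adjusted p 0.017). Gsta3 was 2196 ± 215 against 1729.5 ± 17.9 RPKM, a difference of 0.34 that is close to the median of all genes. The sum of the 10 genes was 7486 ± 599 RPKM against 3368 ± 112. Gstm1 came first in the libraries labelled HNF4a null, at 3059.7 ± 306 RPKM and above all values of Gsta3, which came next. Gstm3 at 735 ± 135 and Gstm2 at 554 ± 30.4 followed Gsta3, and Gstm3 and Gstm2 overlapped.

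Marker sums differed between these liver groups, for some cell types by no more than the median of all genes. Summed RPKM of 11 cholangiocyte markers was 138 to 237 in the libraries labelled HNF4a null and 18.4 to 19.1 in control liver, with 6 of 8 tested called higher. The sum of 9 Kupffer cell and macrophage markers was 186 to 224 against 145 to 154, that of endothelium markers 214.6 to 231.5 against 160.3 to 182.0, and that of stellate cell markers 137.6 to 158.1 against 108.6 to 123.1. Median differences of these 3 lists were 0.29, 0.22 and 0.39, against 0.34 for all genes. By limma 1 of 9, 0 of 12 and 0 of 9 tested were called. Of the endothelium markers 4, and of the stellate cell markers 6, had an unadjusted p under 0.05. Lymphocyte markers summed to 1.90 to 4.34 against 1.40 to 1.86. The sum of neutrophil and monocyte markers was 5.28 to 18.2 against 1.92 to 2.54, and that of hepatocyte markers 15912 to 17967 against 40427 to 42561. Their part in the result was not tested.

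Neighbours on a chromosome did not all move alike. The mu genes lie together on chromosome 3, in the order Gstm5, Gstm7, Gstm6, Gstm3, Gstm2, Gstm1 and Gstm4 (RefSeq, GRCm38.p6). In triple null against FoxA3 null the genes from Gstm6 to Gstm4 all fell, from -1.18 for Gstm4 and Gstm6 to -3.43 for Gstm3, while Gstm5 at -0.36 and Gstm7 at -0.18 were not called. In the libraries labelled HNF4a null only the adjacent Gstm3, Gstm2 and Gstm1 of these 7 were called, and Gstm4 was at -0.36.

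The theta genes lie on chromosome 10, in the order Gstt3, Gstt1, Gstt4 and Gstt2. Gstt3 was 398, 389, 557 and 452 RPKM in triple null replicates, against 51.1, 48.1, 47.3 and 46.5 in FoxA3 null, a larger difference than that of Gstt1 (3.18, SE 0.29, limma adjusted p 1.96e-06). It was also called higher in Cre alfp (2.04, limma adjusted p 0.00149) and lower in the libraries labelled HNF4a null (-2.53, limma adjusted p 8e-05). Across the 15 hepatocyte libraries Gstt1 and Gstt3 correlated at r = 0.974, a description of libraries that share group and depth. Gstt2 was at 0.54 in the triple null and not called.

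**Figure D4:**
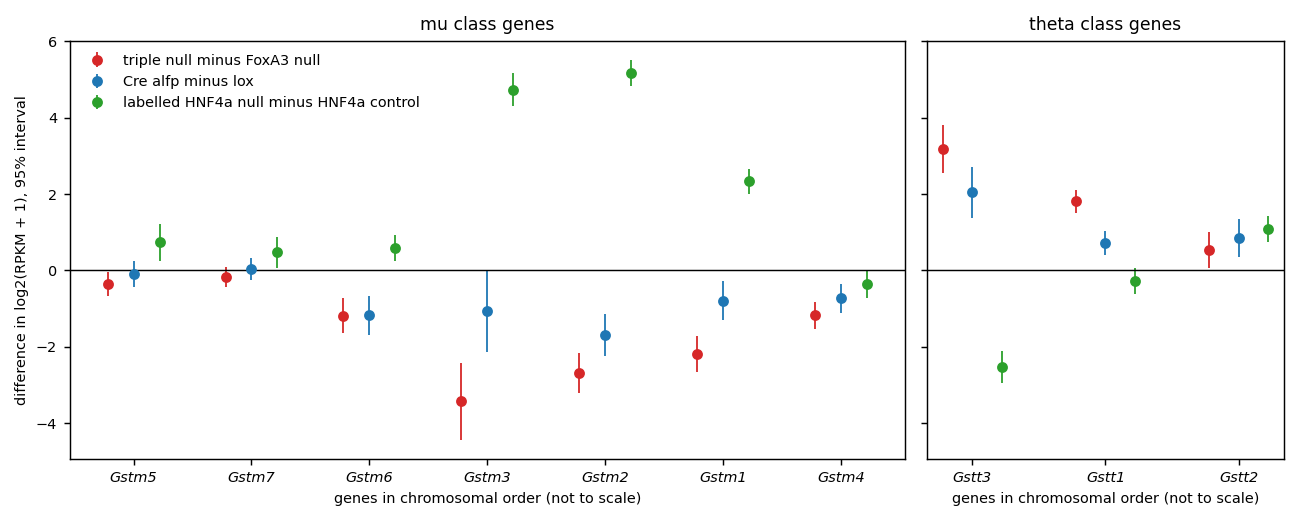
Differences in log2(RPKM + 1) with 95% intervals for mu and theta genes in chromosomal order (not to scale), in 3 comparisons. Gstm3, Gstm2 and Gstm1 lie below 0 in the triple null and above 0 in the libraries labelled HNF4a null, and Gstt3 is at 3.18 in the triple null and at -2.53 in liver.

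Of the other glutathione S-transferases and the membrane-bound MAPEG enzymes, 12 were tested in hepatocytes. In triple null against FoxA3 null 3 rose and 2 fell, with a median of 0.33. Mgst1, the microsomal enzyme, had a higher RPKM than any of the 10 genes in these groups, a mean of 20904 against 6749 (log2 difference 1.63, limma adjusted p 8.85e-08). Gstm4 fell by 1.18, and Mgst3 stood at 1.03, under 1 with median scaling. In Cre alfp against lox Gstt3 rose and Gstp2 fell (-2.05) of the 12. In liver 1 of 11 was higher, Gstt2 at 1.08, which was 0.68 with median scaling, and 1 was lower, Gstt3.

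The genes around the conjugation step were described from lists. Of all genes tested, 4.17% were called higher and 3.95% lower in triple null against FoxA3 null. These shares were 1.29% and 1.1% in Cre alfp against lox, and 8.58% and 5.95% in liver. Of 8 tested genes of glutathione synthesis and cysteine supply, Gclc and Gclm, the subunits of the rate-limiting ligase, fell in the triple null by 2.10 and 1.11 (median of the list -0.10). By limma 0 of the 8 were called in Cre alfp, and 4 had an unadjusted p under 0.05. In liver Ahcy, an enzyme of homocysteine supply, was the 1 called, lower. Of 12 tested genes of glutathione use and recycling Glrx, a glutaredoxin, was called higher in the triple null at 1.01, which median scaling took under 1. By limma 0 of these 12 were called in Cre alfp, 2 with an unadjusted p under 0.05, and Glrx and Glrx5 of 13 were lower in liver. Of 10 breakdown and mercapturate genes, the aminopeptidase Anpep (-1.43) and the glutathione-degrading Chac1 (-1.10) fell in the triple null, Nat8, which forms mercapturates, rose in Cre alfp, and 3 rose and 3 fell in liver. Of 6 export genes, the pump Abcc3 fell by 1.35 in the triple null. By limma 0 export genes were called in Cre alfp, 3 with an unadjusted p under 0.05, and 2 of 8 were called each way in liver.

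Targets of the inducing regulators were mixed. Of 16 tested NRF2 targets, 7 fell and 2 rose in the triple null, with a median of -0.40 against 0.05 for all genes. The full list of these targets shares 3 genes with that of glutathione synthesis. Aox1 fell by 1.92, while G6pdx rose by 2.28. In Cre alfp Me1, Ugdh and Aox1 were called lower and 0 were called higher. In liver 4 of 17 were higher, among them Tkt, Ugdh and Cbr1. Of 8 CAR and PXR targets Cyp2b10 rose in the triple null (2.72) and in Cre alfp (2.93), and in the triple null Gadd45b (-2.09) and Cyp3a11 (-1.09) fell. In liver 4 of the 8 were higher and 3 lower. Of the 2 tested AhR targets limma called 0 in these 3 comparisons, and 0, 1 and 1 had an unadjusted p under 0.05.

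Among 19 tested regulators, Nfe2l1 stood at 1.05 in the triple null, 0.99 with median scaling, and Maff and Nr1i3 (1.12), the gene of CAR, rose in Cre alfp. In the libraries labelled HNF4a null 2 regulators were higher and 3 lower, with Nr1i3 at -4.80, Ppara at -2.18 and Hnf4a itself at 2.09. Zonal genes differed in the triple null, where 4 of 10 pericentral genes rose and 1 fell, with Lect2 at 3.46, Oat at 2.75 and Rhbg at 2.70. Of 10 periportal genes 4 fell. In Cre alfp limma called 0 of either list, with 6 pericentral and 0 periportal genes at an unadjusted p under 0.05. In liver 1 pericentral gene was higher and 2 lower, and 2 periportal genes were higher and 1 lower. With 8.58% of all genes called higher and 5.95% lower in liver, these small counts say little of the lists.

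Lists of genes known to differ between male and female mouse liver were read as well. Of 11 male-biased genes 6 fell and 2 rose in the triple null, with Slco1a1 at -6.04, Hsd3b5 at -6.02 and Mup20 at -4.96. In Cre alfp 5 were called lower and 0 were called higher, with Hsd3b5 at -5.91, Selenbp2 at -5.29 and Mup20 at -3.53. In liver all 11 were called lower. Of 9 tested female-biased genes 3 rose in the triple null, among them Cyp17a1 (4.43), 5 rose in Cre alfp, among them Cyp2b13 (2.99), and 5 of 6 were higher in liver. Xist was at most 0.363 RPKM in any library, and the sum of the 5 sex-linked transcripts Xist, Ddx3y, Uty, Kdm5d and Eif2s3y was 58.9 to 115. Of 4 tested limma called 0 in these comparisons, and 0, 1 and 4 had an unadjusted p under 0.05.

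The patterns of the 10 genes were compared across the 15 hepatocyte libraries by Pearson correlation of log2(RPKM + 1), as a description. The genes with patterns most like Gstt1 were Tnfsf13 (r = 0.982) and Nrn1 (0.980). Those most like Gstm1 were Gm6665 (0.974) and Gstm2-ps1 (0.973), which also came first for Gstm3 (0.944 and 0.942), and reads may be shared with both. Gstm2 was closest to Hpx (0.980) and C6 (0.976), and Gstp1 to 1700066M21Rik (0.924) and Bst2 (0.920). Gsta1 was closest to Gstp2 (0.924) and AL772271.3 (0.869), Gsta2 to Derl2 (0.942) and Gstp2 (0.921), and Gsta3 to Fam136a (0.968) and Khdrbs1 (0.959). Gsta4 was closest to Slc35d1 (0.886) and Gm16791 (0.832), and Gstm6 to Hc (0.916) and Rpl10a (0.914). Among themselves Gstm1 and Gstm3 correlated at 0.977, Gstm1 and Gstm2 at 0.960 and Gsta1 and Gsta2 at 0.811.

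The authors' deposited tables add stages of development. In the authors' deposited table of hepatoblasts, the fetal precursors of hepatocytes, against adult hepatocytes, all 10 genes were lower, from -3.31 for Gsta4 to -7.66 for Gsta1 on the log2 scale, each with an adjusted p under 0.05, as were 37.9% of all genes it lists. In the authors' deposited table of newborn against adult hepatocytes all 10 were lower as well, each under 0.05 as were 31.7% of all genes it lists, least for Gstt1 (-1.14) and Gsta3 (-1.48) and most for Gsta1 (-7.85). In the authors' deposited table of the adult triple null against hepatoblasts 8 of the 10 were higher with an adjusted p under 0.05, where 37.6% of its genes were. Gstt1 was highest at 7.11, and Gstm2 was at -0.08 (adjusted p 0.852). Gsta3 was at 6.95 and Gsta2 at 2.94 (adjusted p 0.1) in the same authors' deposited table.

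In the authors' deposited table of triple null against FoxA3 null 9 of the 10 had an adjusted p under 0.05, against 42.7% of all its genes, from -3.69 for Gstm3 to 1.79 for Gstt1, and Gsta1 stood at -1.71 (adjusted p 0.071). The authors' deposited table against controls with no deletion had all 10 under 0.05, against 51.6% of its genes. The authors' deposited table against Cre alfp listed 9, and 6 of them, against 50.9% of its genes, were under 0.05 after adjustment here, with its last column read as unadjusted p-values because its lines are 1 cell shorter than the header implies. The authors' deposited table of HNF4a null against control liver had 8 of 10 under 0.05, against 46.3% of its genes, with Gstm2 at 4.82 and Gsta1 at -2.02. In the same authors' deposited table Gsta2 (-1.37), Gstp1 (-0.85) and Gstt1 (-0.68) were also lower and under 0.05. Gsta4, Gstm1 and Gstm3 were higher and under 0.05, as was Gstm2. This count has no minimum difference, and limma called none of the 10 lower in liver.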

How the data were processed

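RNA-seq of mouse hepatocytes (15 libraries) and liver (6 libraries) was used. The deposited matrix gives RPKM values, computed by the authors, for 33773 gene symbols, and 21 of its columns were used, while 9 columns that match no sample were not. Liver columns were assigned to groups by name, since they carry barcodes and no replicate numbers. Per the submitters' processing notes, mm9, SAMtools and Cufflinks 2.2.1 were among the build and tools, and the counting step is not given in the sources used here. The authors' deposited comparison tables hold log2 fold changes, p-values and a mean signal per gene (mean normalized counts, not used), and their test is not given in the headers. Per the labels, hepatocyte RNA was extracted with TRIzol and RNeasy columns and made into libraries with an NEB Ultra RNA kit.

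A gene was tested where 3 or more hepatocyte libraries (11500 genes) or 2 or more liver libraries (12434 genes) reached an RPKM of 1, with limma 3.58.1 in R 4.3.3 (eBayes with trend) on log2(RPKM + 1), the hepatocyte groups in 1 fit and liver in another. The procedure was tested on simulated data. The direction of the authors' deposited tables was read from Afp for stages of development and from the matrix for the others, and 1 table's sign was turned. Alternatives changed the pseudocount, filter, scaling, trend, minimum difference, block or libraries, and summing near-identical copies was chosen after seeing the data. The members and gene lists were chosen with earlier results of these data known. All 10 genes are named in each comparison, and from each list at most 3 called genes with the largest differences per comparison (6 for other glutathione S-transferases), besides the genes that check labels, share reads with the 10 or neighbour them. Promoter windows are from RefSeq (GRCm38.p6), and peak lists were not analysed here. Some list genes are not reported here. Absolute depth is unknown, and the number of libraries limits precision.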

Additional observations from a re-analysis of the deposited data

Results flagged for a closer look

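In 40 groups of 4 libraries, 1 for each gene and group of that size, 3 held a library far from the others of its group, where chance gives about 1 in 20. Gsta1 was 3.15 RPKM in FoxA3 null replicate 4, against 0.714 to 1.01 in the other FoxA3 null libraries. Gstm2 was 33.3 RPKM in the same library, against 16.5 to 17.8. Gstm1 was 472 RPKM in triple null replicate 2, against 233 to 261 in the other triple null libraries. FoxA3 null replicate 4 had the highest value of its group for 5 of the 10 genes and triple null replicate 2 for 8.

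The effect of the deletion differed between hepatocytes without and with FoxA3 for 3 genes, by limma's test of the difference itself. It was -1.40 for Gstm1, -2.36 for Gstm3 and 1.09 for Gstt1 on the log2 scale. The set of libraries and the way of deletion differ along with FoxA3.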

How the results depend on the processing

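Of 1207 values recomputed under alternatives, 1119 kept their direction and their side of the threshold, 30 lost and 26 gained a call, 32 with no call changed sign, and 0 called values did. Triple null against FoxA3 null gave 7 calls without any 1 library. Cre alfp against lox gave 3 to 4 in place of 5 without 1 library, 3 with no filter on low values and 3 with only the 2 groups in the fit. The interaction gave 1 to 5 in place of 3, and FoxA3 null against lox 0 to 1 in place of 0. The triple null gave 8 to 9 calls against lox and 4 to 5 against Cre alfp, and liver 4 to 5, or 6 with median scaling. Gsta3 passed a difference of 1 with quantile normalization against lox (1.10) and Cre alfp (1.09). The causes were not tested.

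Whether replicate numbers pair the samples is not known. With each gene's group mean taken off, same-numbered libraries correlated at -0.360 to 0.018 between triple null and FoxA3 null. Between Cre alfp and lox they correlated at -0.203 to 0.116. Differently numbered libraries ran from -0.247 to 0.390 and from -0.240 to 0.345. So few libraries per group cannot decide the question. With the number as a block, triple null against FoxA3 null gave 7 calls, Cre alfp against lox 4, the interaction 3, and FoxA3 null against lox 0, and the triple null gave 8 against lox and 4 against Cre alfp. The block took Gsta1 (limma adjusted p 0.0559) from Cre alfp against lox and, in the interaction, Gstm3 (-2.24, limma adjusted p 0.0509), and added Gstp1 (-1.25, limma adjusted p 0.0359).

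With no minimum difference, calls over all genes went from 933 to 3413 in triple null against FoxA3 null, from 274 to 628 in Cre alfp against lox, from 784 to 1658 in the interaction and from 1807 to 6569 in liver. They went from 1556 to 4891 for the triple null against lox, from 1184 to 4743 for it against Cre alfp, and from 827 to 4001 for FoxA3 null against lox, which gave 1303 with a pseudocount of 0.1. Cre alfp against lox gave 182 with only its groups and 177 without lox replicate 1. The share of calls that were higher was 59.0% in liver, 39.4% with quantile normalization and 31.0% with median scaling. Median scaling took it from 50.5% to 36.1% in FoxA3 null against lox, from 51.1% to 37.0% in triple null against Cre alfp and from 57.1% to 44.7% against lox.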
